A study of Mus musculus with 7 samples.

Results

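The guanylate-binding protein (GBP) genes were followed in microglia sorted from the ischemic brain of young and old mice. The members were taken by symbol: Gbp2, Gbp3, Gbp4, Gbp5, Gbp6, Gbp7, Gbp8, Gbp9 and Gbp10, which are 9 of the 50686 genes listed for each library. The mice were C57BL/6 males without drug treatment, 3 to 4 months old in the Young group (n = 4) and 21 to 22 months old in the Old group (n = 3). All of them had an intraluminal occlusion of the middle cerebral artery for 45 min followed by reperfusion, and the forebrain was taken 4 days later. CD11b+ CD45low cells that also took up Bodipy, a dye of neutral lipid, were sorted by FACS, so the libraries describe lipid-droplet-rich microglia in both ages and hold no sham-operated mice. Each library came from 1 mouse.

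GBPs are large GTPases of the dynamin superfamily that cells make when they receive interferon, above all IFN-γ. They assemble on the vacuoles that hold intracellular pathogens and on bacteria in the cytosol, and they open the way to caspase-11 and to the Aim2 and Nlrp3 inflammasomes. In microglia and macrophages they are read as targets of Jak kinase and Irf1 signalling. In the mouse the genes lie in 2 clusters. Gbp5, Gbp7, Gbp3 and Gbp2 follow each other on the plus strand of chromosome 3, and Gbp8, Gbp9, Gbp4, Gbp10 and Gbp6 lie on the minus strand of chromosome 5.

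The bases before the start of the chromosome 3 members are shown because interferon acts on GBP genes through sites of this kind. The 250 bases upstream of the RefSeq start sites (GRCm38.p6, plus strand) were searched on both strands for the gamma-activated sequence, GAS, spelled TTCNNNGAA, and for the core of the interferon-stimulated response element, ISRE, spelled as GAAA, any 2 bases and GAAA again, or TTTC in the same arrangement on the other strand. RefSeq promoters were matched for 4 of the 9 members, with 5 start sites. The stretch that holds the matches is given 5′ to 3′ with the matches in capitals.
Gbp5, chr3:142496684-142496902: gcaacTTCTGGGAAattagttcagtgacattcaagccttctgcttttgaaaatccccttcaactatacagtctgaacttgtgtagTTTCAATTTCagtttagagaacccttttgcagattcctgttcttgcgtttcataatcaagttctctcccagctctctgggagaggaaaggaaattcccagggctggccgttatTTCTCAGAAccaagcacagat
Gbp7, chr3:142530218-142530304: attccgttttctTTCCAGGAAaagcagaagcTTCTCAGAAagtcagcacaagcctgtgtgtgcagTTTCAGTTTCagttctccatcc
Gbp3, chr3:142559987-142560026: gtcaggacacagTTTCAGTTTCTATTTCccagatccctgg
Gbp2, chr3:142620592-142620625: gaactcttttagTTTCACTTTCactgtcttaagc
Gbp5 and Gbp7 each held 2 GAS matches and 1 ISRE core match in this window, and at least 1 match of both kinds was found before 0.332% of all 32851 RefSeq start sites. Their GAS matches shared the letters TTCTCAGAA, which began 52 bases before the start of Gbp5 and 87 bases before that of Gbp7. Gbp2 held 1 ISRE core match and no GAS match. Gbp3 held 2 overlapping ISRE core matches at its first start site and none of the searched letters at its second. The GAS letters occurred before 7.02% and the ISRE core letters before 2.98% of all start sites. A match describes the letters of the window and says nothing about binding.

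The chromosome 5 members were so alike that reads could be divided between them. Between Gbp6 and Gbp10 the longest annotated coding sequences, 1833 bases each, were 98.4% identical and did not differ in their first 130 bases. The 80 coding bases with the most differences between them, positions 1566 to 1645 of both (GENCODE vM21, GRCm38, minus strand), are given to show how few letters a read had to tell these genes apart, with the 12 differing bases in capitals.
Gbp6, chr5:105274192-105274271: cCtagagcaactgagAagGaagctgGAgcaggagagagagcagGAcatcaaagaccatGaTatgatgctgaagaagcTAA
Gbp10, chr5:105218392-105218471: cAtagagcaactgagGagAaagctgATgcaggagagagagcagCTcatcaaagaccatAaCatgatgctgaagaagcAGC
Coding identity was 90.2% to 92.9% for the other pairs on chromosome 5. It was 78.3% between Gbp7 and Gbp3, 69.1% between Gbp2 and Gbp5, 72.5% to 75.4% for Gbp3 or Gbp7 against the chromosome 5 members, and 63.4% to 65.3% for Gbp2 or Gbp5 against every other member. The paper names reads of 50 bases but gives no separate read length for low-input libraries such as these. Of all 50-base windows in annotated transcripts, 84.1% of those of Gbp10 and 70.7% of those of Gbp6 also occurred in another gene. The share was 18.1% for Gbp8, 12.7% for Gbp7, 8.05% for Gbp9 and 7.78% for Gbp4, and between 1.44% and 3.75% for Gbp3, Gbp2 and Gbp5. Values of Gbp10 and Gbp6 are therefore uncertain as single-gene values. Those of Gbp8, Gbp9 and Gbp4, whose loci also overlap on the same strand, are so to a lesser degree. The same holds for Gbp7, whose expected counts were whole numbers in 0 libraries. Most of its shared windows were with Gm43802 (10.5% of its windows), a gene within its locus that had 0 expected counts in every library.

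**Figure D1:**
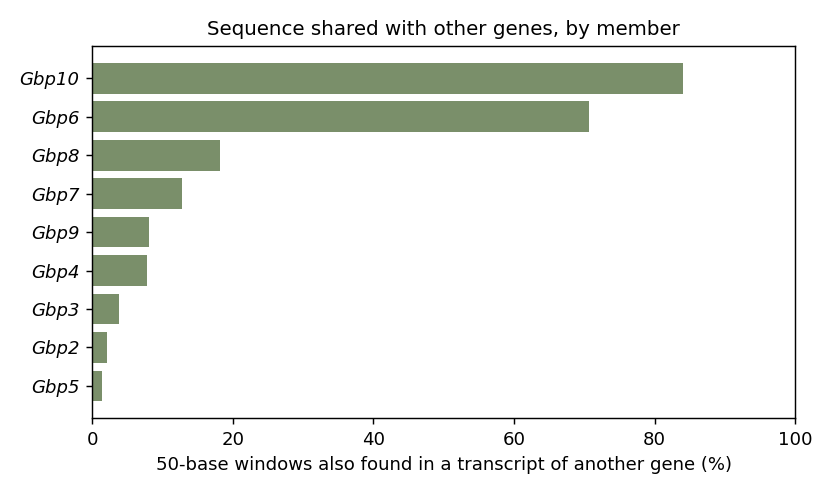
Share of the 50-base windows of each gene's annotated transcripts that also occur in a transcript of another gene (x axis, percent) for the 9 members (y axis). Gbp10 and Gbp6 stand at 84.1% and 70.7%, and all others are at or under 18.1%.

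Libraries held between 36574083 and 53002386 expected counts, the read numbers that RSEM assigns to genes, and levels are given as CPM, counts scaled to the library total with TMM factors. Old mouse 2 and young mouse 4 stood apart. The CD45low gate used for microglia would leave out leukocytes with high CD45. Markers of microglia such as P2ry12 and Tmem119 summed to 11176 CPM in old mouse 2 against 21747 to 32406 CPM in the other 6 libraries. Markers of monocytes, 8 genes such as Ly6c2 and Ccr2, summed to 2441 CPM in old mouse 2 against 54.7 to 225 in the others, and 7 of the 8 were higher on average in Old. Those of border-associated macrophages summed to 1608 CPM in old mouse 2 against 156 to 573, with 8 of 8 higher. F13a1 stands in both of these lists, and Ly6c1 in the monocyte and endothelial lists. Of the other markers tested, 8 of 8 were higher for neutrophils, 13 of 15 for T and NK cells, and 5 of 6 for B cells. Higher were also 5 of 8 for dendritic cells, 5 of 8 for astrocytes, 3 of 5 for oligodendrocytes, 2 of 9 for microglia and 0 of 8 for endothelial cells. T and NK cell markers, from cells known to make IFN-γ, summed to 2.02 to 11.2 CPM in Young and 8.25 to 12.6 CPM in Old. Young mouse 4 had 130 CPM of neutrophil markers, old mouse 2 had 165, and the remaining 5 libraries had 17.0 to 68.2. Markers of dendritic cells summed to 11.7 to 19.4 CPM in Young and 23.8 to 66.5 CPM in Old, and those of endothelial cells to 71.8 to 141 against 51.9 to 69.8, while B cell, astrocyte and oligodendrocyte sums overlapped between the ages. Among these lists only Pax5, a B cell marker, was at 0 in all libraries. In bulk RNA, fewer cells of a type and less RNA per cell cannot be told apart, and the part of these cells in the GBP levels was not tested.

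Within the family, levels per transcript length spanned a wide range. In TPM, which scales reads by transcript length and library total, Gbp2 was highest with a mean of 18.8 ± 6.72 (SD, n = 7 libraries), followed by Gbp7 with 14.1 ± 4.19, Gbp3 with 12.8 ± 3.29 and Gbp9 with 7.80 ± 2.22. Gbp6 had 4.78 ± 2.09 TPM, Gbp5 1.82 ± 0.65, Gbp4 1.61 ± 0.40, Gbp8 0.596 ± 0.37 and Gbp10 0.217 ± 0.17. The order was not firm at every step. Gbp7 was above Gbp3 in 4 of 7 libraries and Gbp5 above Gbp4 in 4 of 7, and these neighbours did not differ beyond their spread. Gbp3 was above Gbp9, Gbp9 above Gbp6, Gbp6 above Gbp5 and Gbp4 above Gbp8 in all 7 libraries. Gbp2b and Gbp11, the related genes of each cluster that are no members here, reached at most 4.08 and 1.66 expected counts in any library.

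**Figure D2:**
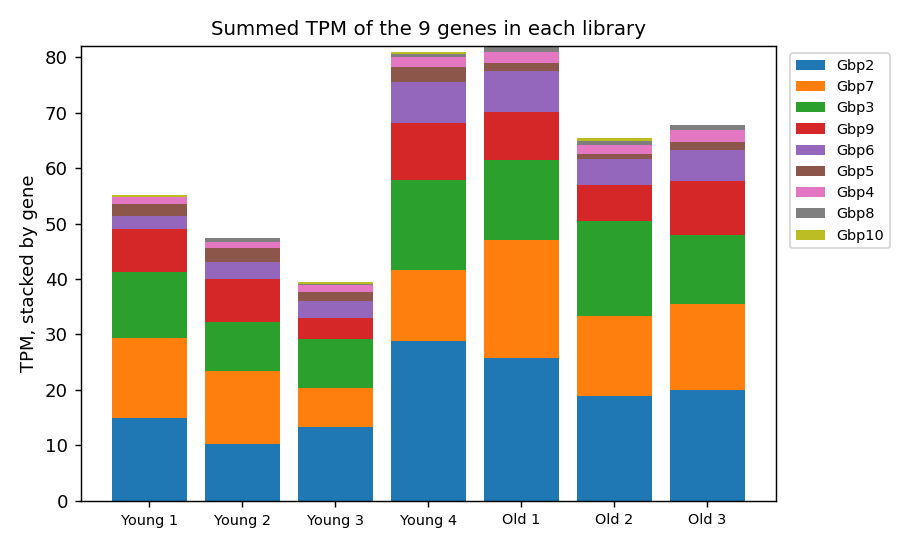
TPM of the 9 members stacked by gene (y axis) in each library (x axis, Young 1 to 4 and Old 1 to 3). The family sums to 39.4 to 81.0 TPM in Young and 65.4 to 82.0 TPM in Old, and young mouse 4 stands beside the old libraries.

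The question of the comparison was whether these transcripts differed with age in ischemic microglia. The family as a whole summed to 114, 96.1, 74.9 and 173 CPM in young mice 1 to 4 and to 200.5, 150.4 and 144 CPM in old mice 1 to 3. The mean was 114 ± 42.0 CPM (SD, n = 4) in the young mice. It was 165 ± 30.9 CPM (SD, n = 3) in the old mice. All old libraries were above young mice 1 to 3 and young mouse 4 lay within the old range, so the groups overlapped. Of the 9 members, 7 were higher on average in Old and 2, Gbp5 and Gbp10, were lower, where 48.8% of the 17559 genes tested had a fold change above 1. The median log2 fold change of the members was 0.48, and that of all genes tested was -0.01. No member fell under an adjusted p of 0.05 by the edgeR quasi-likelihood test, against 0.803% of all genes tested, and their adjusted p-values ran from 0.187 to 0.688. An unadjusted p under 0.05 was found for 3 members (Gbp4, Gbp7 and Gbp8), all higher in Old, where 18.9% of all genes had such a p and 10.1% had it with a higher level in Old.

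**Figure D3:**
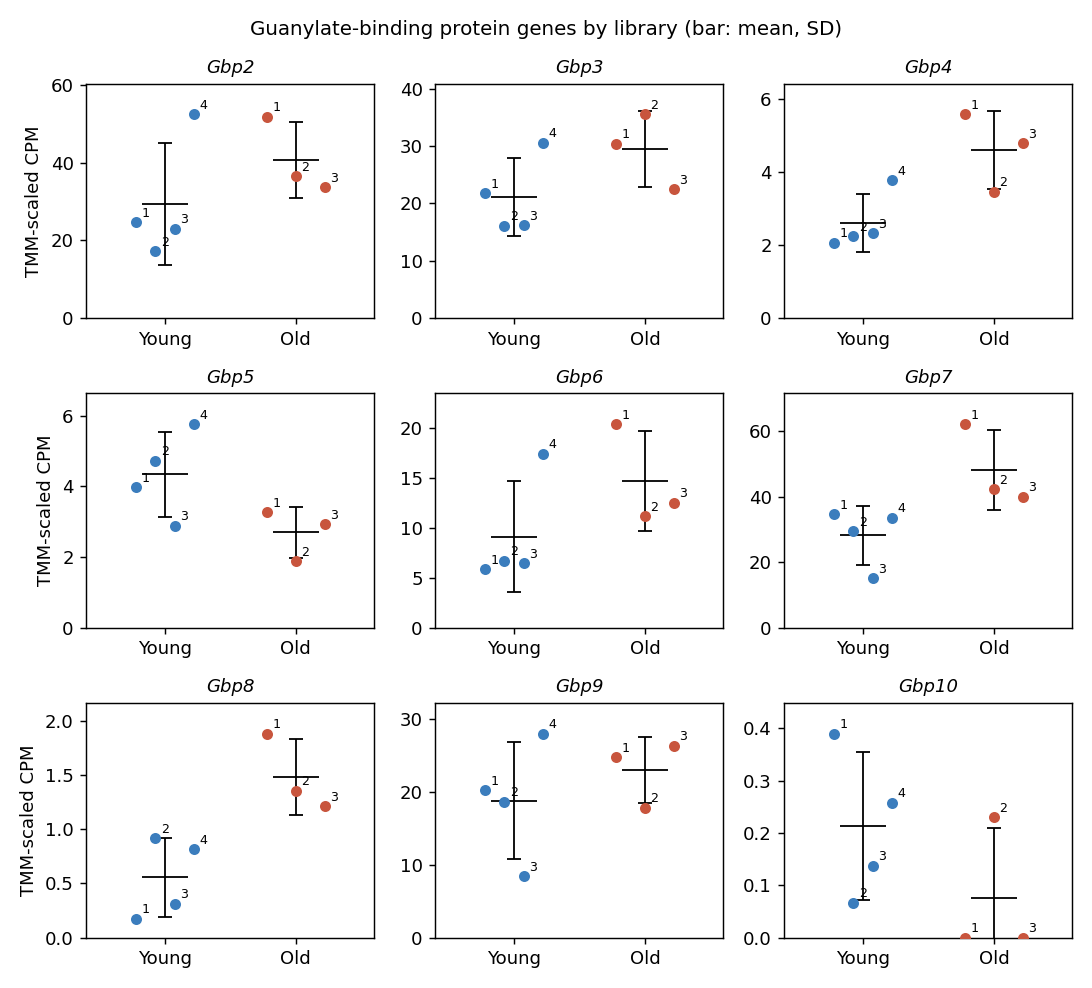
TMM-scaled CPM of each member (y axes, each starting at 0) in the Young and Old groups (x axes), with points for the libraries numbered by mouse and bars for the mean and SD. The old points of Gbp7 and Gbp8 lie above every young point, and young mouse 4 is the highest young library in 6 of the 9 panels.

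On chromosome 3, Gbp2, the member with the most TPM, is a prenylated GBP that gathers on parasite and bacterial vacuoles. It had 24.7, 17.2, 23.1 and 52.6 CPM in young mice 1 to 4 and 52.0, 36.6 and 33.8 CPM in old mice 1 to 3. Young mouse 4 was the highest of all 7 libraries, and without it the young values would lie below all old ones. The log2 fold change was 0.47 (SE 0.36, 95% interval -0.34 to 1.28, edgeR adjusted p = 0.503), and it was 0.91 with young mouse 4 left out, 0.29 without young mouse 2 and 0.26 without old mouse 1.

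Gbp7, a member linked to the assembly of the phagocyte NADPH oxidase and to autophagy, had 34.6, 29.5, 15.1 and 33.5 CPM in Young and 62.2, 42.2 and 40.0 CPM in Old. Every old library was above every young one, which held for 8.67% of all genes tested. The log2 fold change was 0.77 (SE 0.28, 95% interval 0.12 to 1.42) and did not pass adjustment (edgeR adjusted p = 0.197). On the TPM scale the gap was narrow, with 14.5 TPM in the lowest old library against 14.4 in the highest young one. Gbp3, its closest relative in coding sequence on this chromosome, had 21.7, 16.1, 16.2 and 30.6 CPM in Young and 30.4, 35.5 and 22.5 CPM in Old. Its groups overlapped through young mouse 4, and its log2 fold change was 0.48 (SE 0.26, edgeR adjusted p = 0.347).

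Gbp5, a prenylated member known to promote Nlrp3 inflammasome assembly, went the other way. It had 3.98, 4.72, 2.88 and 5.76 CPM in young mice 1 to 4 and 3.28, 1.89 and 2.94 CPM in old mice 1 to 3. The groups overlapped only through young mouse 3, which lay below old mice 1 and 3. The log2 fold change was -0.68 (SE 0.31, 95% interval -1.40 to 0.03, edgeR adjusted p = 0.282). In TPM the groups did not overlap, with 1.66 to 2.71 in Young and 0.87 to 1.48 in Old. The share of all genes with such a gap in TPM is not given here. Its expected counts were whole numbers, within 0.001, in 7 of 7 libraries, from 74 to 268, that is, without fractions of reads shared with another gene.

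The estimated fold changes of the 4 chromosome 3 members thus differed in direction, though none of them passed adjustment. As a share of the summed TPM of the family, Gbp5 took 4.16% ± 0.83 (SD, n = 4) at the young age and 1.75% ± 0.43 (SD, n = 3) at the old age, and no old library reached the lowest young share. The TPM of Gbp7 was 4.24 to 6.89 times that of Gbp5 in Young and 10.5 to 16.6 times in Old. For Gbp2 this ratio was 4.06 to 10.6 in Young and 13.5 to 21.7 in Old. These ratios were formed within a library and show unequal levels, whatever the scaling between libraries. They were computed after the values had been seen and carry no test. The shares of the other 8 members overlapped between the ages, among them Gbp2 with 29.5% ± 6.44 (SD, n = 4) and 29.9% ± 1.35 (SD, n = 3).

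On chromosome 5, Gbp9 was the most abundant member. It had 20.2, 18.6, 8.43 and 27.9 CPM in Young and 24.7, 17.8 and 26.3 CPM in Old, with young mouse 4 the highest and young mouse 3 the lowest of the 7. Its log2 fold change of 0.29 (SE 0.35, edgeR adjusted p = 0.688) was 0.05 with young mouse 3 left out and 0.17 without old mouse 3, and it was 0.54 without young mouse 4 and 0.44 without old mouse 2.

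Gbp4 had 2.06, 2.24, 2.31 and 3.76 CPM in Young and 5.57, 3.45 and 4.77 CPM in Old. Only young mouse 4 reached the level of old mouse 2. The log2 fold change was 0.83 (SE 0.30, 95% interval 0.15 to 1.50), with the smallest adjusted p of the family (edgeR adjusted p = 0.187). It was smaller where transcript length was taken into account, at 0.57 with an offset for effective length. On log2(TPM + 0.1) it was 0.48 and on log2(TPM + 1) it was 0.31. RSEM gave Gbp4 a mean length of 2391 to 2853 bases in Young and 3575, 2607 and 3260 bases in old mice 1 to 3.

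Gbp8 was scarce, with 0.173, 0.917, 0.314 and 0.817 CPM in Young and 1.88, 1.35 and 1.21 CPM in Old. These values stand on 8.08 to 40.8 expected counts in Young and 53.2 to 62.9 in Old. The groups did not overlap, and the log2 fold change of 1.41 was the highest of the 9 with a wide interval (SE 0.58, 95% interval 0.09 to 2.73, edgeR adjusted p = 0.236).

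Gbp6 had 5.87, 6.71, 6.49 and 17.5 CPM in Young and 20.4, 11.2 and 12.6 CPM in Old. Young mice 1 to 3 lay close together and below all old mice, and young mouse 4 was the second highest of the 7. The log2 fold change was 0.69 (SE 0.41, edgeR adjusted p = 0.399) with all libraries, 1.21 without young mouse 4 and 0.38 without old mouse 1. The mean transcript length that RSEM gave the gene, 3079 to 3494 bases, exceeded the 2604 bases of its protein-coding transcript in all 7 libraries, and the other annotated Gbp6 transcripts are a retained-intron form of 4243 bases and one of 4173 bases marked for nonsense-mediated decay.

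Gbp10, nearly the same in coding sequence, had 17.7, 3.17, 6.98 and 11.9 expected counts in Young and 0, 8.70 and 0 in Old. A count of 0 allows up to 3 counts, for counting error only. Over the library total without TMM factors, this is 0.0820 CPM in old mouse 1 and 0.0650 CPM in old mouse 3. The length of Gbp10 was given as 703 bases, that of an annotated retained-intron transcript, in 4 of 7 libraries. Among them is old mouse 1, where the count was 0 and the length rests on no reads. The length was 2027 bases in young mouse 1 and 969 bases in young mouse 4. At this depth no difference was detectable (log2 fold change -1.44, SE 1.33, edgeR adjusted p = 0.588). Gm43302, an annotated gene that spans both loci, received 14.4 expected counts in young mouse 3 and 0 in every other library. With Gbp6 and Gbp10 summed, the log2 fold change was 0.66 (SE 0.41, edgeR adjusted p = 0.407), and it was 0.65 with Gm43302 added.

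Summed by cluster, the chromosome 3 members gave a log2 fold change of 0.54 (SE 0.26, edgeR adjusted p = 0.300) and the chromosome 5 members one of 0.49 (edgeR adjusted p = 0.434). The old library was higher in 12 of 12 pairs of an old and a young library for Gbp7 and Gbp8, in 11 of 12 for Gbp4, in 10 of 12 for Gbp3 and Gbp6, in 9 of 12 for Gbp2 and in 7 of 12 for Gbp9. For Gbp5 and Gbp10 the old library was higher in 2 of 12 pairs. No member had all its old values below all its young ones in CPM, a pattern found in 9.07% of all genes tested.

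Much of the overlap came from young mouse 4, which was the highest young library for 6 members. With this library left out, groups without overlap were found for Gbp2, Gbp3, Gbp4, Gbp6, Gbp7 and Gbp8. Of all genes, 23.2% then had such a gap in either direction. This share is no fair background, because young mouse 4 was singled out for its high values in the members themselves. The members also varied together, so their gaps are not separate observations. For 4 members the groups were separate without old mouse 2 (28.7% of all genes), Gbp4, Gbp7 and Gbp8 higher in Old and Gbp10 lower. Without both libraries the groups were separate for 8 members, Gbp10 lower in Old and the others higher (35.9% of all genes). The same limits hold for this comparison, which also leaves out young mouse 4. The gap of Gbp10 in both counts lies at the floor. It sets 0 counts in old mice 1 and 3, each of which allows up to 3 counts, against 3.17 in young mouse 2. In none of these fits did a member pass the adjusted threshold.

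**Figure D4:**
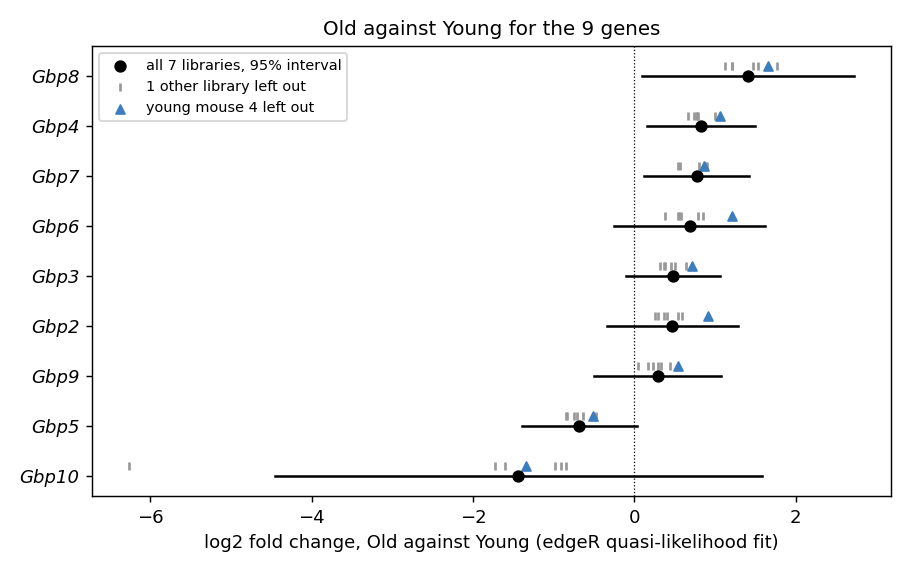
Log2 fold change of Old against Young (x axis) for each member (y axis), as dots with 95% intervals from all 7 libraries, with tick marks for the fits that leave out 1 library and triangles for the fit without young mouse 4. The intervals of Gbp4, Gbp7 and Gbp8 lie above 0, and the lone tick of Gbp10 at -6.27 comes from leaving out old mouse 2, after which both old libraries are at 0.

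The members varied together to different degrees. Across the 7 libraries, the log2 CPM of Gbp2, Gbp3, Gbp4, Gbp6, Gbp7, Gbp8 and Gbp9 correlated with the log2 sum of the other members with Pearson's r between 0.66 and 0.88. The r of Gbp5 was -0.02 and that of Gbp10 was -0.32. These are descriptions over 7 libraries that share the difference in age and the high values of young mouse 4. By the same measure, the genes most like the summed family among 12166 with a mean of at least 1 CPM were Pex16 (r = 0.989), Tgtp2 (r = 0.985), Gm13822 (r = 0.976), Ccm2 (r = 0.974), Gcm2 (r = 0.973) and Tm2d3 (r = 0.972). These r were picked as the highest of 12166 over 7 libraries, may be high by chance and carry no test. The log2 fold change was 0.16 for Pex16, 0.21 for Ccm2 and 0.19 for Tm2d3. It was 0.83 for Tgtp2, 1.49 for Gm13822 and 0.95 for Gcm2. Tgtp2, an interferon-inducible GTPase of the IRG family, had 14.3, 9.89, 7.51 and 28.8 CPM in Young and 32.0, 23.6 and 25.1 CPM in Old.

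The pathway around the GBPs was read from 6 lists of 59 genes, of which 56 were tested and 0 passed an adjusted p of 0.05 in edgeR. An unadjusted p under 0.05 was found for 9 of them with a higher and 7 with a lower level in Old, where 18.9% of all genes tested had such a p in either direction. DESeq2 called 8 of them, where it called 7.97% of all genes, and the edgeR fit without a filter on low counts called 3, where it called 1.05% of all genes. Among 12 other interferon-inducible GTPases, all 10 that were tested were higher on average in Old, 4 of them with an unadjusted p under 0.05 (48.8% and 10.1% of all genes tested), and their median log2 fold change was 0.65. The 4 were Gvin1, a very large inducible GTPase, with 1.03 (SE 0.24, edgeR adjusted p = 0.0852), Ifi47 with 1.95 (SE 0.59), Mx1 with 0.88 and Mx2 with 0.47. The value of Ifi47 leaned on old mouse 2, which had 68.4 CPM against 22.0 and 12.1 in the other old libraries and 3.49 to 12.2 in Young. Irgm1 and Igtp, the IRG members with the highest levels, had log2 fold changes of 0.40 and 0.27.

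The genes that carry the IFN-γ signal showed no common direction, with 4 higher and 6 lower in Old and a median log2 fold change of -0.08. Ifng itself had 0 counts in all 7 libraries. Jak2, the kinase bound to the IFN-γ receptor, had 16.8, 13.2, 13.4 and 17.4 CPM in Young and 25.2, 31.7 and 21.6 CPM in Old, without overlap (log2 fold change 0.79, SE 0.18, edgeR adjusted p = 0.0801). Socs3, a feedback inhibitor of Jak kinases, had 569 to 785 CPM in Young and 171 to 481 CPM in Old (log2 fold change -1.09, SE 0.32, edgeR adjusted p = 0.133). Irf8 had the highest level of the list, with 550.0 to 661 CPM in Young and 469 to 601 in Old.

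In the type I interferon list, 5 genes were higher and 4 lower, with a median log2 fold change of 0.25. Tyk2, a kinase of the type I receptor, had 53.1 to 60.5 CPM in Young and 28.0 to 39.6 CPM in Old (log2 fold change -0.71, SE 0.14, edgeR adjusted p = 0.0591), the smallest adjusted p of the 6 lists. Irf7 and Isg15, targets of type I interferon, had log2 fold changes of 1.10 (SE 0.41) and 0.93 (SE 0.33), with edgeR adjusted p-values of 0.205 and 0.185. Ifnar2, a receptor chain, stood at 159 to 182 CPM in Young and 163 to 170.2 in Old.

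Downstream of the GBPs, the 10 sensing and inflammasome genes had a median log2 fold change of -0.05, with 5 higher and 5 lower. Nlrp3 had 204 to 224 CPM in Young and 77.3 to 142 CPM in Old, without overlap (log2 fold change -0.95, SE 0.20, edgeR adjusted p = 0.0660). Aim2, the DNA sensor, had a log2 fold change of -0.47 (SE 0.20, edgeR adjusted p = 0.259), and Pycard and Il1b, the genes of highest level, had 0.22 and -0.51. Of the 12 genes of ATG8 conjugation and ubiquitin that direct GBPs to vacuoles, 8 were higher and 4 lower with a median of 0.04. Atg16l1 was lower in every old library (log2 fold change -0.53, SE 0.14, edgeR adjusted p = 0.116), and Atg5, Gabarap and Sqstm1 had 0.29, 0.25 and -0.32. The 5 protein prenylation genes, which add the lipid by which Gbp2 and Gbp5 hold to membranes, had a median of -0.06. Pggt1b, a subunit of an enzyme that adds geranylgeranyl groups, had 19.0 to 21.5 CPM in Young and 14.2 to 16.2 CPM in Old (log2 fold change -0.40, SE 0.12, edgeR adjusted p = 0.148), and Icmt, the methyltransferase of prenylated proteins, also had -0.40. Fnta and Rce1, the other genes named from this list, had 0.03 and 0.04.

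**Figure D5:**
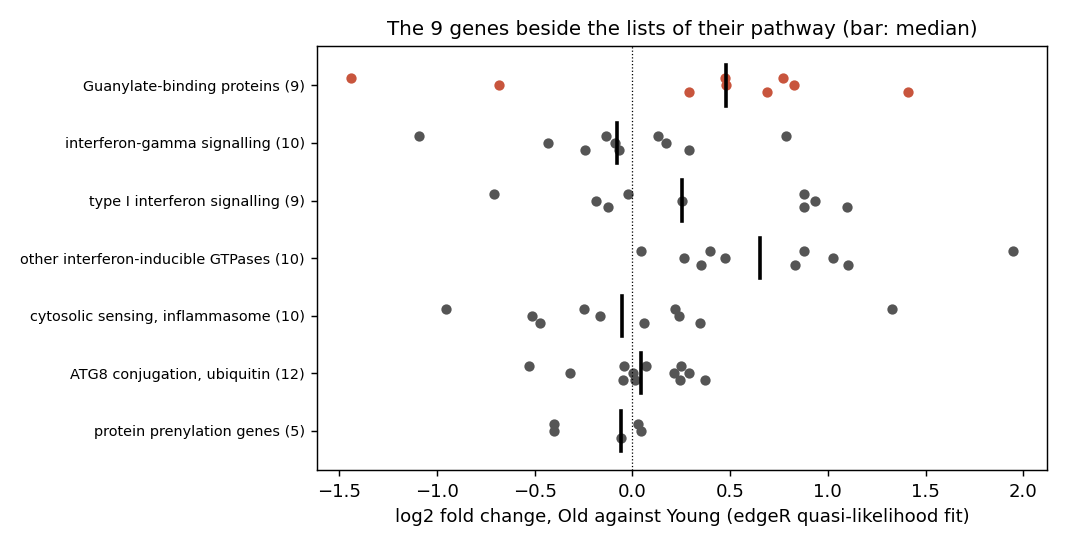
Log2 fold change of Old against Young (x axis) of each tested gene, by list (y axis, number of genes in brackets), with a bar at the median. The members have a median of 0.48 and the other interferon-inducible GTPases one of 0.65, while the medians of the IFN-γ signalling, inflammasome, ATG8 and prenylation lists lie between -0.08 and 0.04.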

How the data were processed

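RNA of sorted microglia was made into non-stranded Smart-seq2 libraries, 1 per mouse. The authors checked reads with FastQC 0.11.5, trimmed them with skewer, aligned them with STAR to GRCm38 and quantified genes with RSEM and the GENCODE M15 annotation (STAR and RSEM versions: not given in the sources used here). Deposited files, 1 per mouse, hold expected counts per gene, not normalized, together with TPM, which the authors' RSEM run scaled by transcript length and library total. No molecular identifiers are named, so counts may include PCR copies.

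Expected counts were rounded to whole numbers, and genes with a count above 10 in at least 1 library on an autosome were kept (17559 genes). TMM factors ran from 0.952 to 1.05. Old was compared with Young by the quasi-likelihood test of edgeR 4.0.16 with Benjamini-Hochberg adjustment over all genes tested, on all 7 libraries and with no covariate. The biological coefficient of variation was 37.2%. The SE is that of the fitted log2 fold change. TPM was used for levels between genes. Members took part in every test of the whole table. The alternatives were limma-voom and limma on log2(TPM + 1) or log2(TPM + 0.1) (limma 3.58.1), DESeq2 1.42.0, RLE and upper-quartile factors, other filters, an offset for effective length, summed members, and each library left out. The script was tested on simulated data. Loci, transcripts and coding sequences came from GENCODE vM21, a later release than the one behind the counts and gene lengths, and pairs were aligned with Biopython 1.88.

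The members and gene lists were chosen with earlier results of these data known. All members are named. From each pathway list, every called gene, the 2 with the smallest p, the 2 with the highest mean CPM and genes without counts are named, together with Mx1 and Mx2, chosen after their values were seen. No pathway gene was called in the main test. The Gbp5, Gbp7 and Gbp3 promoters were also chosen after the values were seen.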

Additional observations from a re-analysis of the deposited data

Results flagged for a closer look

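In the young group, 32 sets of 4 values were tested for a library far from the others by Dixon's ratio, the gap to the nearest library over the whole range, against its critical value for 4 samples. There were 4 sets above it, where chance gives about 1.6 for independent and unselected sets. These sets are neither, as the members varied together and the pathway genes were picked by p or level. The number 1.6 is therefore no firm expectation. For Gbp6 the ratio was 0.927 and for Gbp4 it was 0.849, with young mouse 4 high in both (17.5 CPM against 5.87 to 6.71, and 3.76 CPM against 2.06 to 2.31). The ratio was 0.905 for Gabarap, with young mouse 3 at 466 CPM against 368 to 377, and 0.896 for Fnta, with young mouse 2 at 44.7 CPM against 38.6 to 39.2. Gbp2 in young mouse 4, at 52.6 CPM, was also the highest of its young group without passing this value. The old group of 3 was too small for it.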

How the results depend on the processing

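In none of the alternatives did a member pass an adjusted p of 0.05. The lowest adjusted p was 0.0783, for Gbp4 with DESeq2, which called 7.97% of all genes. Gbp2, Gbp3, Gbp4, Gbp6, Gbp7, Gbp8 and Gbp9 were higher in Old in all of them. The direction of Gbp5 was reversed in the sum of the chromosome 3 members (0.54 on the log2 scale), as the sum is made mostly of other members. That of Gbp10 was reversed in the sum of the chromosome 5 members (0.49), with Gbp6 (0.66), and with Gbp6 and Gm43302 (0.65, an alternative chosen after seeing the data). Members whose groups do not overlap numbered 2 with all libraries in CPM, both higher in Old. Of all genes tested, 8.67% had such a gap with Old higher and 9.07% with Old lower. The members numbered 3 on the TPM scale, where Gbp5 is added and the share of all genes is not given here. With 1 library left out they numbered between 2 and 6, with 6 without young mouse 4 (23.2% of all genes) and 4 without old mouse 2 (28.7%). They numbered 8 without both (35.9%), a fit also chosen after seeing the data. Young mouse 4 was singled out for its high values in the members, so 23.2% and 35.9% are no fair background for them. Gbp10, at the floor, is among the 4 and the 8. Pathway genes past the threshold numbered 0 in the main test, 8 with DESeq2, 3 with no filter on low counts (Tyk2, Nlrp3 and Gvin1), and between 0 and 1 with 1 library left out (Tyk2 without old mouse 2, Nlrp3 without old mouse 3). Over all genes, edgeR called 141, DESeq2 1399, the fit without a filter 288, limma on log2(TPM + 1) 64, and the fits with 1 library left out 1 to 159. The pseudocount of 0.1 moved the median of all genes to -0.13. The mouse numbers follow the order of deposit and come from no label. No paired analysis was possible because the mice of the groups are different animals whose codes in the labels do not match. Counts limit Gbp10 and Gbp8, and 3 mice in Old limit all members.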
